A study of Homo sapiens with 6 samples.

Results

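The genes described here encode enzymes that add or remove chemical marks on histones and on DNA. They were chosen by name, as symbols that begin with HDAC, SIRT, KAT, KDM, KMT2, KMT5, SETD, NSD, DNMT, TET or EZH and go on with a number or a letter and a number, leaving out the katanin genes. The rule used no measured value and found 74 genes, all protein-coding, among the 18417 genes tested. Expression was measured on Affymetrix arrays in THP-1, an established human line grown from a monocytic leukaemia, which carries a rearrangement that joins KMT2A to MLLT3. On 3 arrays were PMA-differentiated cells, exposed for 3 days to 200 nM phorbol myristate acetate (PMA) and left to rest for another 3 days after its removal, and on 3 arrays were unstimulated cells. Both groups grew in RPMI with 10% FBS, 2.5 mM glutamate and 0.05 mM mercaptoethanol. PMA activates protein kinase C and turns THP-1 cells into adherent macrophage-like cells. The values below are log2 expression values of 1 probe set per gene, listed for replicates 1, 2 and 3 in that order. A difference is PMA-differentiated minus unstimulated on this log2 scale, ± its standard error, and adjusted p-values come from limma with Benjamini-Hochberg adjustment over all genes.

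Acetyl groups on histone lysines are written by acetyltransferases and erased by histone deacetylases (HDACs) and sirtuins, and acetylated chromatin is usually open to transcription. Histone methyl groups are written mostly by SET domain methyltransferases and erased by flavin-dependent KDM1 enzymes or by JmjC demethylases, which need iron and oxoglutarate, and the methylated lysine decides whether the mark goes with active or silent genes. On DNA, DNMT enzymes methylate cytosine and TET dioxygenases oxidise the methyl group, a first step towards its removal. Several of these genes, among them KMT2A, DNMT3A, TET2 and EZH2, are recurrently altered in myeloid leukaemia.

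The labels were checked against marker genes. All 8 macrophage markers were higher on the PMA arrays. Of 6 monocyte and myeloid markers 0 were higher and 3 lower (median difference -0.67), namely CSF3R (-3.40), LYZ (-2.76) and MPO (-1.10), while CD68 averaged 11.41 with PMA and 11.65 in unstimulated cells. Of 12 markers of dividing cells, 10 were lower with PMA and 0 higher. Their summed linear level was 6218 to 7064 on the PMA arrays and 10630 to 12010 on the unstimulated arrays. By their mean over the 6 arrays, all 6 T cell and all 6 fibroblast markers lay below the median over all genes, as did 4 of 5 B cell, 4 of 5 erythroid and 5 of 6 epithelial markers. Higher with PMA were 1 B cell and 2 fibroblast markers, among them PDGFRA, which averaged 8.30 with PMA, above that median, and 5.15 in unstimulated cells. Arrays of 1 group correlated at 0.988 to 0.995, and arrays of different groups at 0.958 to 0.968. PMA replicate 3 was the PMA array farthest from its group mean for 38 of the 74 genes, and unstimulated replicate 1 was the unstimulated array farthest from its own for 41. The labels do not say that replicates were separate cultures. The p-values therefore reflect array-to-array spread alone, which could be technical.

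More of the enzyme genes were lower than higher in PMA-differentiated cells. At an adjusted p of 0.05, 4 of 74 were higher and 25 lower (5.41% and 33.8%), where 13.2% of all genes tested were higher and 13.2% lower. Either way 29 passed, or 39.2%, against 26.4% of all genes. The median difference of the 74 genes was -0.24, against -0.03 for all genes, and 54 were negative. Since 63 of their probe sets were brighter than the median over all genes, the other genes above that median were counted too. Of those 9146 genes, 19.6% were higher and 17.9% lower, or 37.5% either way. The 3 PMA values and the 3 unstimulated values did not overlap for 50 enzyme genes, 8 higher and 42 lower, where 41.2% of all genes did not overlap, 19.2% higher and 22% lower. Of the 74, 14 passed with at least 1.5-fold, where 16.7% of all genes did. They were 3 higher and 11 lower, against 9.38% and 7.35% of all genes. Counted within the genes that passed, 1.5-fold was reached by 14 of 29 enzyme genes and by 3081 of 4854 over all genes. Among the 9146 other genes above the median level, 4872 did not overlap, 2389 higher and 2483 lower. Of the same genes, 2191 passed with at least 1.5-fold, 1244 higher and 947 lower. With each array centred on its median the counts were 6 higher and 16 lower, where 15.8% of all genes were higher and 9.78% lower. With cyclic loess they were 6 higher and 19 lower, where 15.9% of all genes were higher and 10.7% lower. Centring ended the calls of HDAC10, KAT6B, KDM1A, KMT2D, KMT5A, KMT5C, SETD1B, SETD2 and SETD5, and loess those of KAT6B, KDM4B, KMT5A, KMT5C, SETD2 and SETD5. The lower count was 12 when PMA replicate 1 was left out, 16 for PMA replicate 2 and 14 for unstimulated replicate 2, where 8.67%, 9.54% and 9.87% of all genes were lower. With PMA replicate 3 and unstimulated replicate 1 both left out, 7 were higher and 31 lower, and the shares of all genes were 17.4% and 16.8%. Markers of dividing cells were lower in the same samples, and their part in these differences was not tested. In RNA from whole cultures, fewer cells that express a gene and less of its RNA per cell cannot be told apart.

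**Figure D1:**
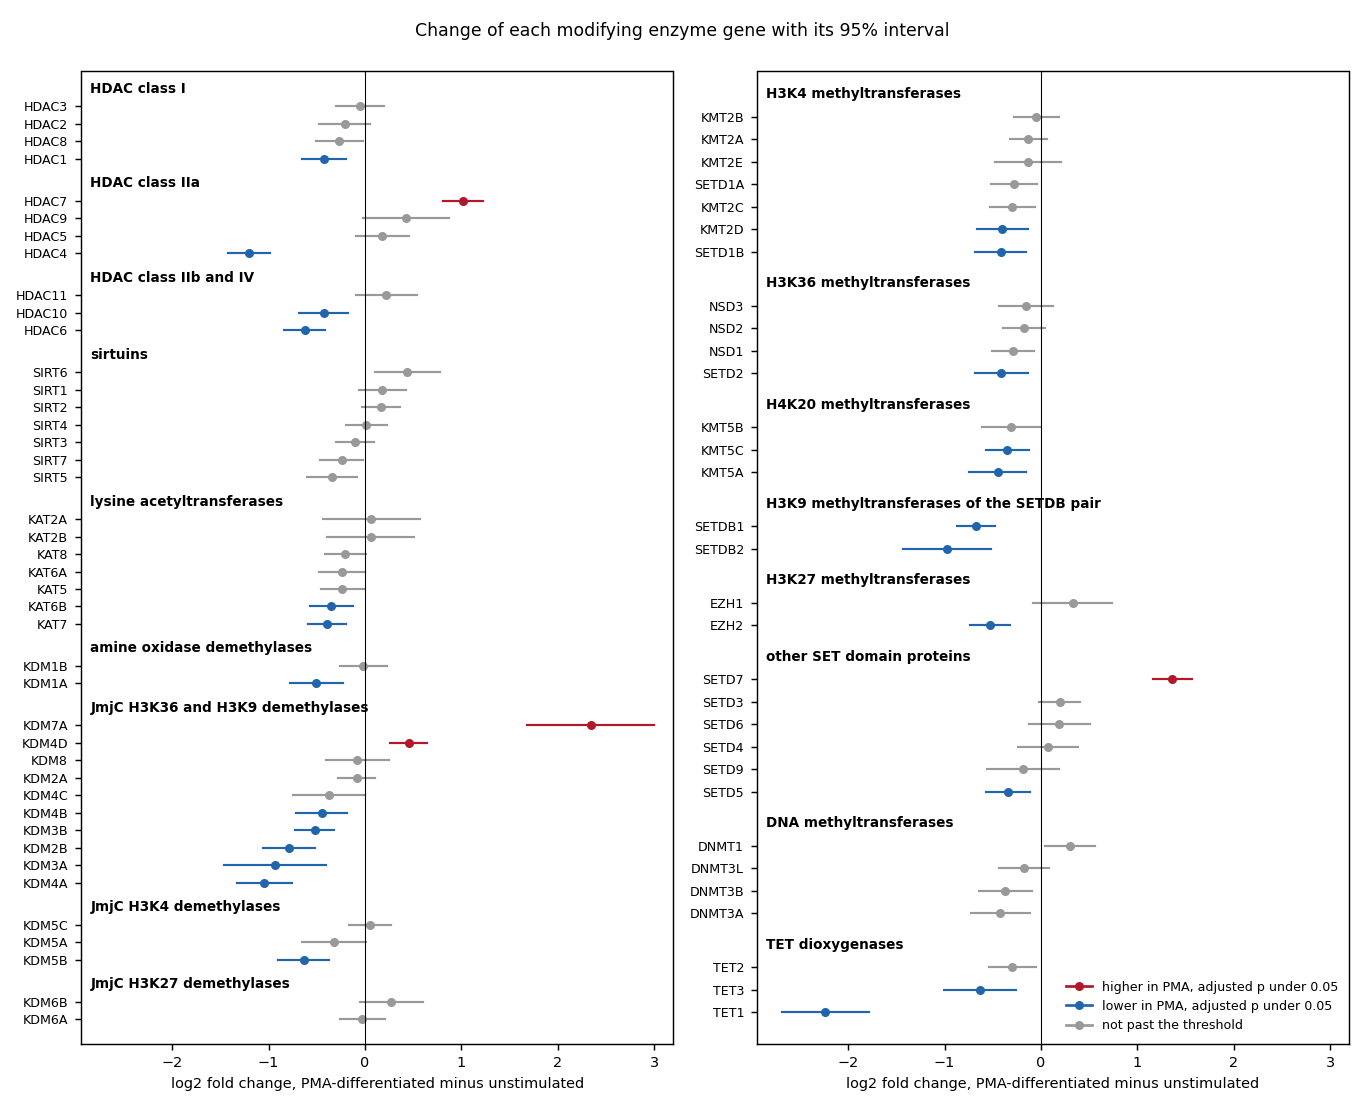
Log2 difference, PMA-differentiated minus unstimulated (x axis), of 73 enzyme genes grouped by subfamily, with 95% confidence intervals from the limma fit on 3 arrays per group. Red marks genes higher and blue genes lower at an adjusted p of 0.05, grey the others. KDM7A, SETD7 and HDAC7 stand at the right and TET1, HDAC4 and KDM4A at the left, with most of the other genes between -0.5 and 0.5.

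The 6 genes that changed at least 2-fold were KDM7A, SETD7 and HDAC7, which rose, and TET1, HDAC4 and KDM4A, which fell. Over all genes 5.17% rose and 3.2% fell by that much. These 6 kept their calls under each of the 21 alternatives in which they were tested. TET1 was tested in 19 of the 21 and KDM7A in 20. Neither was tested where genes below the median were removed, and TET1 was also not tested where only the dimmest genes were left out. The 250 bases before the start of each of the 6 genes are given here because these genes carried the largest differences. They are from RefSeq (GRCh38.p14), read 5′ to 3′ on the strand of the gene, and capitals mark matches on either strand to one of 7 short motifs: AP-1 (TGANTCA), CRE (TGACGTCA), E2F (TTTCCCGC or TTTGGCGC), CHR (TTTGAA), the CCAAT box (CCAAT), the GC box (GGGCGG) and ETS (CCGGAAG).
KDM7A (chr7:140176984-140177233, minus strand): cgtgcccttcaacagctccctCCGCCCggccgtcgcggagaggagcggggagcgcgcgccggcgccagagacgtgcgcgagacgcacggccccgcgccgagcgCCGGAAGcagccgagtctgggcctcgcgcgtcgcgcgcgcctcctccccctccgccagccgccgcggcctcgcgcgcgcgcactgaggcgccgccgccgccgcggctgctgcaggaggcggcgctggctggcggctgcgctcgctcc
SETD7 (chr4:139556220-139556469, minus strand): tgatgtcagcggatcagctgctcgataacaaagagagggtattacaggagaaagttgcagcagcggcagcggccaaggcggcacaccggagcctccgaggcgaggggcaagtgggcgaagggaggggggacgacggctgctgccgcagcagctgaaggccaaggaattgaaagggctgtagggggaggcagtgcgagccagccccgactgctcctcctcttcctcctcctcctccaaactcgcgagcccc
HDAC7 (chr12:47819904-47820153, minus strand): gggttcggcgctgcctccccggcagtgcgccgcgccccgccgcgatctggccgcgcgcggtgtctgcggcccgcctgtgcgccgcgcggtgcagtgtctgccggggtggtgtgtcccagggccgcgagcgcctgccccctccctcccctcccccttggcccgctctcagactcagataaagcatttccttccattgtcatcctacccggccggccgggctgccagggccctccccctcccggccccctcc
TET1 (chr10:68560087-68560336, plus strand): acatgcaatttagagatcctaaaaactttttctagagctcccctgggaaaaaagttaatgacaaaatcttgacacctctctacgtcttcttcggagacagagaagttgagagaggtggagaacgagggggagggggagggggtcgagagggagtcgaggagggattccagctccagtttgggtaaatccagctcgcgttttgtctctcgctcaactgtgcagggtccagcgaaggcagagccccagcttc
HDAC4 (chr2:239401650-239401899, minus strand): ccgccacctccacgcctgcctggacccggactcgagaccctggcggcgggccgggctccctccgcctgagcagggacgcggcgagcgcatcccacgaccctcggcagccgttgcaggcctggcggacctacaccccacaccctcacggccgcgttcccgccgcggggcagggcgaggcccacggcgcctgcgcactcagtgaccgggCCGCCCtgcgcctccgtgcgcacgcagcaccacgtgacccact
KDM4A (chr1:43649899-43650148, plus strand): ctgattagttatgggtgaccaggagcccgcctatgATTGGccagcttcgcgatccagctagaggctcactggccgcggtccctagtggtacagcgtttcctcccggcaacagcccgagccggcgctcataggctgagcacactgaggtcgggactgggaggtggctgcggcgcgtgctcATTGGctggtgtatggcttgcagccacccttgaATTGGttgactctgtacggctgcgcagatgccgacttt

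PMA acts through protein kinase C on AP-1 factors in many cells, and CHR, E2F and CCAAT motifs are common in promoters of cell cycle genes, which is why these letters were searched. None of the 6 windows held the AP-1, CRE, E2F or CHR letters. The KDM4A window held CCAAT at positions -215, -71 and -38 from the start, the HDAC4 window a GC box at -43, and the KDM7A window a GC box at -229 and an ETS match at -147. No motif was found in the windows of SETD7, HDAC7 and TET1. The HDAC4 table entry had 5 starts and the TET1 entry 3, of which the outermost was used, and the HDAC7 start lies inside the gene. GC content was 81.6% with 50 CpG in the KDM7A window and 51.6% with 9 CpG in the TET1 window. Windows were found for 67 of the 74 genes. AP-1 letters occurred in 2 of the 67 (2.99%), against 6.57% of all 35116 windows. GC boxes occurred in 42 (62.7%), against 42.6% of all windows, and CCAAT in 20 (29.9%), against 32%. Among genes that fell, 12 of 24 windows held CCAAT, as did 1 of the 4 windows of genes that rose and 7 of the 39 others. E2F letters were in 0 of the 24, 0 of the 4 and 3 of the 39 windows. CHR letters were in 1 of the 24, 0 of the 4 and 3 of the 39. GC boxes were in 16 of the 24, 2 of the 4 and 24 of the 39. ETS letters were in 2 of the 24, 2 of the 4 and 6 of the 39. AP-1 letters were in 0, 0 and 2 of these windows, and CRE letters in 0, 0 and 1. Of all windows, 1.93% held E2F, 13.3% CHR, 8.52% ETS and 1.65% CRE letters. None of these splits by direction was tested. Median GC content was 66.8% for the enzyme genes and 58% for all windows. A match describes letters in this window and is not a site.

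Histone deacetylases split within class IIa, the signal-responsive HDACs that shuttle between nucleus and cytoplasm. HDAC4, known from mouse muscle and bone as a repressor of MEF2 and RUNX factors, read 6.81, 6.84 and 6.81 on the PMA arrays and 7.88, 8.11 and 8.08 on the unstimulated arrays. The PMA values lay together and about 1 log2 unit under the lowest unstimulated value. The difference was -1.20 ± 0.10, or 2.30-fold lower (adjusted p = 0.000103). HDAC7, best known from mouse thymocytes and endothelium, went the other way. It read 8.12, 8.01 and 8.003 on the PMA arrays and 7.09, 6.97 and 7.02 on the unstimulated arrays, with no overlap. Its difference was 1.02 ± 0.09, or 2.02-fold higher (adjusted p = 0.000164). HDAC9, of the same class, read 9.17, 9.08 and 9.33 with PMA and 8.30, 8.95 and 9.03 in unstimulated cells. The groups did not overlap, but unstimulated replicate 1 stood well below the other two and the difference of 0.43 ± 0.19 did not pass (adjusted p = 0.152). HDAC5 differed by 0.18 ± 0.12 (adjusted p = 0.336).

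Class I HDACs, the nuclear catalytic subunits of corepressor complexes, differed less. HDAC1 read 10.54, 10.58 and 10.70 with PMA and 11.15, 10.94 and 11.01 in unstimulated cells, without overlap. It fell by 0.43 ± 0.10 (adjusted p = 0.0147), a call lost without PMA replicate 1 (adjusted p = 0.0631) or PMA replicate 2 (adjusted p = 0.0523). HDAC2 and HDAC8 were at -0.21 and -0.27 and did not pass. HDAC3, the enzyme of the NCoR complexes, had a difference of -0.05 with a 95% interval of -0.30 to 0.19. HDAC6, the mainly cytoplasmic tubulin deacetylase, read 7.16, 7.12 and 7.04 with PMA and 7.80, 7.64 and 7.75 in unstimulated cells. It fell by 0.63 ± 0.09 (1.54-fold, adjusted p = 0.00189). HDAC10, a polyamine deacetylase, fell by 0.43 ± 0.11 (adjusted p = 0.0235), a call lost without PMA replicate 2 or either unstimulated replicate 1 or 2 (adjusted p up to 0.0820). HDAC11, the class IV enzyme, was at 0.22 ± 0.14 (adjusted p = 0.296). Of the 11 HDACs, 1 was higher and 4 lower, where 13.2% of all genes were higher and 13.2% lower.

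None of the 7 sirtuins, the NAD-dependent deacylases, passed the threshold in limma, although 3 had an unadjusted p under 0.05. The share of all genes past the threshold was 26.4%. SIRT6, a nuclear deacylase of histone H3, read 8.19, 7.91 and 8.09 with PMA and 7.92, 7.46 and 7.49 in unstimulated cells. The groups overlapped through unstimulated replicate 1, and the difference was 0.44 ± 0.15 (adjusted p = 0.0625). Without that array it was 0.59 (adjusted p = 0.00963). It also passed with quantile normalization repeated (adjusted p = 0.0449), with arrays centred (0.0427) and with cyclic loess (0.0269). SIRT5, the mitochondrial desuccinylase, was at -0.34 ± 0.11 (adjusted p = 0.0550) and passed without PMA replicate 3 (-0.41, adjusted p = 0.0386). SIRT1, the nuclear deacetylase, differed by 0.18 ± 0.11 (adjusted p = 0.274), and SIRT7 by -0.24 ± 0.10 (adjusted p = 0.110). SIRT2, SIRT3 and SIRT4 lay between -0.11 and 0.17.

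Among 7 lysine acetyltransferases, 2 fell and 0 rose, where 13.2% of all genes fell and 13.2% rose. KAT7 (HBO1), a MYST enzyme that acetylates H3 and H4 and serves replication origins, read 9.21, 9.27 and 9.33 with PMA and 9.68, 9.62 and 9.70 in unstimulated cells. The groups were apart, and the gene fell by 0.40 ± 0.09 (adjusted p = 0.0114), a call lost without PMA replicate 1 (adjusted p = 0.0520). KAT6B (MORF) fell by 0.35 ± 0.10 (adjusted p = 0.0308), a call lost without PMA replicate 1 or 3 or unstimulated replicate 2 or 3 (adjusted p up to 0.116). Its relative KAT6A (MOZ), a fusion partner in some myeloid leukaemias, was at -0.24 ± 0.10 (adjusted p = 0.138), with all PMA values below all unstimulated ones. KAT5 and KAT8 were at -0.24 and -0.20 and did not pass. The GCN5 gene KAT2A read 9.10, 8.92 and 8.62 with PMA and 9.31, 8.58 and 8.57 in unstimulated cells. Unstimulated replicate 1 was the highest of all 6 arrays, and the difference was 0.06 ± 0.22 (adjusted p = 0.879). With PMA replicate 3 and unstimulated replicate 1 left out it was 0.43 (adjusted p = 0.0140). KAT2B (PCAF) read 8.74, 8.40 and 9.07 with PMA and 8.40, 8.72 and 8.93 in unstimulated cells, with overlapping groups and a difference of 0.06 ± 0.20. KAT14 shares its only probe set with PET117 and was not tested.

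JmjC demethylases held the largest rise and 7 falls among 16 genes, with 2 higher, where 13.2% of all genes fell and 13.2% rose. KDM7A, which removes dimethyl marks from lysines 9 and 27 of histone H3, read 7.24, 7.84 and 6.78 on the PMA arrays and 4.55, 5.33 and 4.94 on the unstimulated arrays. Values varied by up to 1 log2 unit within the PMA group, yet its lowest value was above the highest unstimulated one. The difference was 2.34 ± 0.28 (95% interval 1.68 to 3.00), or 5.07-fold (adjusted p = 0.000822). Unstimulated replicate 1 lay at the lower quartile of its array, 4.53, and replicates 2 and 3 within 1 log2 unit above theirs, so the size of the rise is uncertain. KDM4D, a demethylase of H3 lysine 9, read 5.45, 5.44 and 5.49 with PMA and 5.03, 5.01 and 4.98 in unstimulated cells. Both groups were tight, and it rose by 0.45 ± 0.08 (1.37-fold, adjusted p = 0.00509). Its mean level was dim, at percentile 24.6 of all genes, so the size of this rise is uncertain too. KDM4D was not tested where the lowest 25% of genes or those below the median were left out.

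Its relatives KDM4A and KDM4B, which remove tri- and dimethyl marks from H3 lysines 9 and 36, fell. KDM4A read 9.38, 9.52 and 9.50 with PMA and 10.76, 10.37 and 10.41 in unstimulated cells. All PMA values were well below all unstimulated ones, and the difference was -1.05 ± 0.12, or 2.07-fold lower (adjusted p = 0.000707). KDM4B fell by 0.45 ± 0.11 (adjusted p = 0.0225), a call lost without PMA replicate 1 or 2 or unstimulated replicate 2 (adjusted p up to 0.0888). KDM4C read 8.12, 8.13 and 7.95 with PMA and 8.08, 8.56 and 8.69 in unstimulated cells, overlapping through unstimulated replicate 1. It was at -0.37 ± 0.16 (adjusted p = 0.135) and passed without unstimulated replicate 1 (-0.55, adjusted p = 0.00930).

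KDM3A and KDM3B erase mono- and dimethyl marks of H3 lysine 9, and KDM3A is a known hypoxia-induced gene. KDM3A read 7.95, 8.02 and 7.94 with PMA and 8.32, 9.12 and 9.27 in unstimulated cells. Unstimulated replicate 1 lay between the PMA arrays and the other unstimulated arrays. The difference was -0.93 ± 0.23 (1.91-fold lower, adjusted p = 0.0191). The call was lost without PMA replicate 1 (adjusted p = 0.0666), unstimulated replicate 2 (0.0798) or unstimulated replicate 3 (0.0657), and without unstimulated replicate 1 the difference was -1.22 (adjusted p = 0.000248). KDM3B read 9.28, 9.28 and 9.20 with PMA and 9.75, 9.73 and 9.85 in unstimulated cells. It fell by 0.52 ± 0.09 (adjusted p = 0.00329), with a gap between the groups. KDM2B, which recruits a variant Polycomb complex to CpG islands, read 7.77, 7.61 and 8.01 with PMA and 8.59, 8.58 and 8.60 in unstimulated cells. It fell by 0.79 ± 0.12 (1.73-fold, adjusted p = 0.00196), with nearly equal unstimulated values and more spread with PMA. KDM2A was at -0.09 ± 0.08 (adjusted p = 0.513) and KDM8 at -0.08 ± 0.14 (adjusted p = 0.748). A second, dimmer KDM8 probe set gave 0.18 (adjusted p = 0.347 when every probe set was tested).

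Of the 4 KDM5 genes, demethylases of H3 lysine 4, 2 fell and 0 rose, against 13.2% of all genes each way. KDM5B read 8.77, 8.98 and 8.61 with PMA and 9.36, 9.42 and 9.49 in unstimulated cells, without overlap. It fell by 0.64 ± 0.11 (1.55-fold, adjusted p = 0.00514). KDM5A was at -0.32 ± 0.14 (adjusted p = 0.149) and KDM5C at 0.05 ± 0.09 (adjusted p = 0.771). The H3 lysine 27 demethylases did not pass. KDM6B (JMJD3), a known inflammatory response gene in macrophages, read 7.28, 7.18 and 7.02 with PMA and 6.60, 7.06 and 6.996 in unstimulated cells. PMA replicate 3 lay within the unstimulated range, and the difference was 0.27 ± 0.14 (adjusted p = 0.213). KDM6A (UTX) stayed between 3.61 and 3.90 on all 6 arrays, below the lower quartile of each, so its level was not measured reliably. Of the flavin-dependent enzymes, KDM1A (LSD1) read 8.49, 8.55 and 8.40 with PMA and 9.20, 8.80 and 8.95 in unstimulated cells. It fell by 0.50 ± 0.12 (adjusted p = 0.0175), a call lost without PMA replicate 1 (adjusted p = 0.0589) or unstimulated replicate 3 (adjusted p = 0.0518), and KDM1B was at -0.02 ± 0.10.

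**Figure D2:**
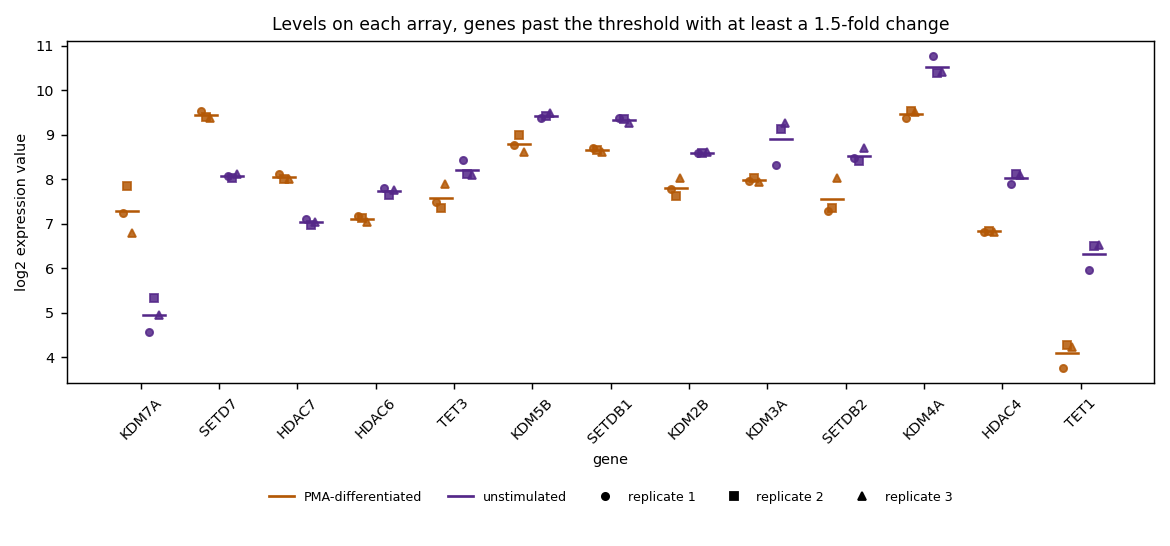
Log2 expression value (y axis) on each of the 6 arrays for the enzyme genes that changed at least 1.5-fold, PMA-differentiated cells at the left of each pair and unstimulated cells at the right. Symbols give the replicate number and bars the mean of 3 arrays. The groups are apart for every gene shown, and KDM7A and KDM3A have the widest spread within a group.

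The H3 lysine 4 list held the catalytic subunits of COMPASS complexes and their relative KMT2E (MLL5), for which such activity is not established. All 7 differences were negative, as were 10174 of all 18417, and 2 genes fell, as did 13.2% of all genes. KMT2A (MLL1), the gene rearranged in this line, read 8.84, 8.92 and 8.83 with PMA and 8.95, 8.997 and 9.03 in unstimulated cells. The groups were just apart, and the difference was -0.13 ± 0.08 (95% interval -0.33 to 0.07, adjusted p = 0.326). A second KMT2A probe set gave -0.11. Whether these probe sets see the normal transcript, the fusion or both was not analysed here. SETD1B fell by 0.42 ± 0.11 (adjusted p = 0.0294) and KMT2D by 0.40 ± 0.11 (adjusted p = 0.0345). The SETD1B call was lost without PMA replicate 1 or 2 or unstimulated replicate 1 or 2 (adjusted p up to 0.102), and the KMT2D call without any of these or PMA replicate 3 (adjusted p up to 0.112). SETD1A was at -0.28 ± 0.10 (adjusted p = 0.0892) and KMT2C at -0.30 ± 0.10 (adjusted p = 0.0677), which passed without unstimulated replicate 1 (-0.38, adjusted p = 0.0211). KMT2C has pseudogene copies whose RNA its probe set may share. KMT2E read 9.85, 10.09 and 9.75 with PMA and 9.75, 10.15 and 10.19 in unstimulated cells, with overlap, and KMT2B was at -0.05 ± 0.10.

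SETD2, which trimethylates H3 lysine 36 during elongation, read 9.25, 9.31 and 9.60 with PMA and 9.69, 9.81 and 9.90 in unstimulated cells. It fell by 0.41 ± 0.12 (adjusted p = 0.0390), a call lost without PMA replicate 1 or 2 or unstimulated replicate 2 or 3 (adjusted p up to 0.140). The dimethylases NSD1, NSD2 and NSD3 were at -0.29, -0.18 and -0.16 and did not pass. KMT5A, the cell-cycle-regulated monomethylase of H4 lysine 20, read 10.36, 10.36 and 10.77 with PMA and 10.95, 10.90 and 10.99 in unstimulated cells. PMA replicate 3 lay near the unstimulated arrays, and the fall was 0.45 ± 0.13 (adjusted p = 0.0358). That call was lost without PMA replicate 1 or 2 or any unstimulated array (adjusted p up to 0.130), and when every probe set was tested its 3 probe sets gave -0.45, -0.41 and -0.16 (adjusted p = 0.0523, 0.0729 and 0.559). KMT5A also has pseudogene copies. KMT5C fell by 0.35 ± 0.10 (adjusted p = 0.0331), a call lost without PMA replicate 1 or 2 or unstimulated replicate 1 or 2 (adjusted p up to 0.120), and KMT5B was at -0.31 ± 0.13 (adjusted p = 0.121).

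Both SETDB genes, which encode H3 lysine 9 methyltransferases, fell. SETDB1, which silences endogenous retroviruses, read 8.69, 8.65 and 8.60 with PMA and 9.37, 9.34 and 9.27 in unstimulated cells. The arrays within each group lay within about 0.1 of each other, and the difference was -0.68 ± 0.08 (1.60-fold lower, adjusted p = 0.000940). SETDB2 read 7.29, 7.35 and 8.02 with PMA and 8.47, 8.41 and 8.70 in unstimulated cells. PMA replicate 3 was the highest of its group and still below every unstimulated value, and the difference was -0.98 ± 0.20 (1.97-fold lower, adjusted p = 0.00863).

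SETD7, the lysine methyltransferase also known as SET7/9, which monomethylates H3 lysine 4 and many non-histone proteins, was the SET domain gene that rose. It read 9.52, 9.40 and 9.37 with PMA and 8.07, 8.03 and 8.11 in unstimulated cells. Both groups were tight, and the difference was 1.36 ± 0.09 (2.57-fold, 95% interval 1.16 to 1.57, adjusted p = 3.98e-05). SETD5 fell by 0.34 ± 0.10 (adjusted p = 0.0354), a call lost without any array except PMA replicate 2 (adjusted p up to 0.10). SETD3, the actin histidine methyltransferase, was at 0.19 ± 0.09 (adjusted p = 0.169), and SETD4, SETD6 and SETD9 lay between -0.19 and 0.19.

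EZH2 and EZH1 are the alternative catalytic subunits of PRC2, which methylates H3 lysine 27, and EZH2 is known to be the one of dividing cells. EZH2 read 9.30, 9.31 and 9.28 with PMA and 9.85, 9.72 and 9.90 in unstimulated cells. The PMA values were nearly equal and below all unstimulated values, and the gene fell by 0.53 ± 0.09 (1.44-fold, 95% interval -0.73 to -0.32, adjusted p = 0.00384). EZH1 read 8.15, 8.10 and 8.32 with PMA and 7.45, 8.03 and 8.11 in unstimulated cells. Its groups overlapped by a single pair of arrays, unstimulated replicate 1 was low, and the difference of 0.33 ± 0.17 did not pass (adjusted p = 0.228). Markers of dividing cells had a median difference of -0.67 on the same arrays, and their part in the fall of EZH2 was not tested.

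No DNA methyltransferase passed in limma, although 3 of 4 had an unadjusted p under 0.05. The share of all genes that passed was 26.4%. DNMT1, the maintenance enzyme, read 10.30, 10.36 and 10.33 with PMA and 10.24, 9.89 and 9.95 in unstimulated cells. The PMA arrays lay above all unstimulated arrays by a small margin, with a difference of 0.30 ± 0.11 (adjusted p = 0.0851), or 0.41 without unstimulated replicate 1 (adjusted p = 0.0163). It also passed with arrays centred (0.39, adjusted p = 0.0467) and with cyclic loess (0.38, adjusted p = 0.0247). The de novo enzyme DNMT3A read 7.44, 7.14 and 7.64 with PMA and 7.80, 7.81 and 7.88 in unstimulated cells. Its groups were apart, with a difference of -0.42 ± 0.13 (adjusted p = 0.0523), or -0.54 without PMA replicate 3 (adjusted p = 0.0136). It passed with the lowest 25% of genes left out (adjusted p = 0.0469) and with genes below the median left out (0.0426). DNMT3B was at -0.37 ± 0.12 (adjusted p = 0.0566) and passed without unstimulated replicate 3 (-0.48, adjusted p = 0.0235). DNMT3L, the catalytically inactive cofactor, was at -0.18 ± 0.11 (adjusted p = 0.314).

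TET1 was the enzyme gene that fell most. It read 3.76, 4.27 and 4.23 on the PMA arrays and 5.96, 6.50 and 6.51 on the unstimulated arrays. All 3 PMA values were below the lower quartile of their arrays, so the size of the fall is uncertain. The difference was -2.24 ± 0.19 (4.71-fold lower, adjusted p = 0.000161). TET3 read 7.49, 7.35 and 7.89 with PMA and 8.43, 8.12 and 8.10 in unstimulated cells. It fell by 0.63 ± 0.16 (adjusted p = 0.0231), a call lost without PMA replicate 1 or 2 or unstimulated replicate 1 or 2 (adjusted p up to 0.0862). TET2, the member most often mutated in myeloid disease, read 8.91, 8.82 and 8.80 with PMA and 8.95, 9.21 and 9.25 in unstimulated cells. Unstimulated replicate 1 lay just above the PMA arrays, and the difference was -0.30 ± 0.11 (adjusted p = 0.0816), or -0.39 without that array (adjusted p = 0.0227). A second TET2 probe set, with overlapping groups, gave -0.24 (adjusted p = 0.282 when every probe set was tested).

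**Figure D3:**
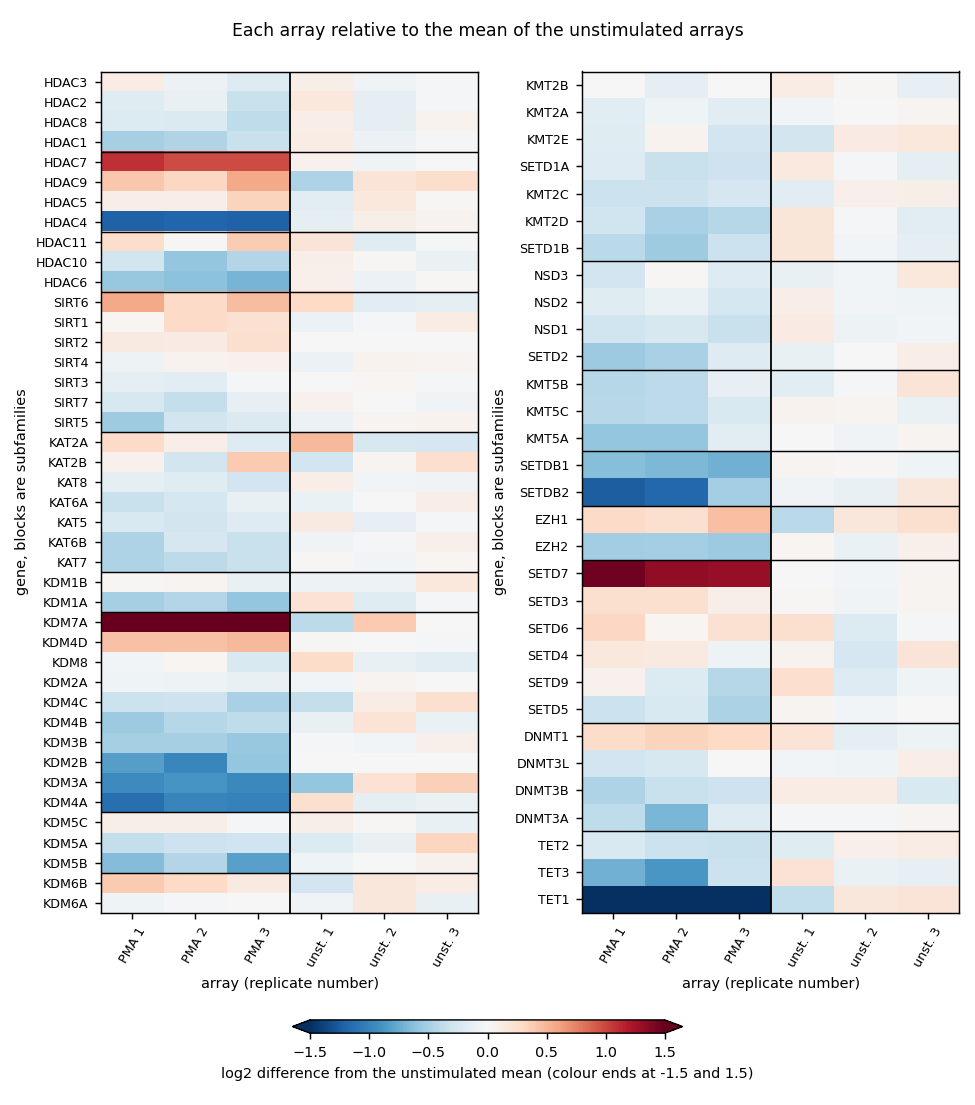
Each row is 1 of 73 enzyme genes and each column an array, PMA-differentiated arrays at the left and unstimulated arrays at the right. Colour gives the log2 difference from the mean of the 3 unstimulated arrays, ending at -1.5 and 1.5. Blue prevails in the PMA columns, and unstimulated replicate 1 departs from its group for genes such as KDM3A, HDAC9 and KAT2A.

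Partners of these enzymes were read from 10 lists of 128 measured genes. Of those, 13 were higher and 29 lower (10.2% and 22.7%), where 13.2% of all genes were higher and 13.2% lower. Their median difference was -0.12, against -0.03 for all genes. These partners were bright, with a median level of 8.525 against 6.816 for all genes. Of genes above the median level, enzyme genes left out, 19.6% were higher and 17.9% lower. Either way 32.8% of the partners passed, against 37.5% of those genes. The lists were chosen with earlier results known, so their counts are descriptions, to be read against those shares, and several lie near them. Among Polycomb genes, 6 of 14 PRC1 subunits rose and 0 fell (median 0.21). Of 9 PRC2 partners 0 rose and 1 fell (median -0.15), and the difference between these 2 lists was not tested. PCGF2 (MEL18), a PRC1 core subunit, averaged 8.37 ± 0.16 with PMA and 6.54 ± 0.17 in unstimulated cells (SD, n = 3 each) and rose by 1.82 ± 0.12 (limma adjusted p = 4.97e-05). PHC2, a polyhomeotic subunit, averaged 8.49 ± 0.39 with PMA and 7.10 ± 0.14 in unstimulated cells and rose by 1.38 ± 0.19 (adjusted p = 0.00152). PCGF5 rose by 1.16 ± 0.11 (adjusted p = 0.00023) and RYBP, of the variant complexes, by 0.66 ± 0.14 (adjusted p = 0.00948). AEBP2 was the PRC2 partner that fell (-0.42 ± 0.12, adjusted p = 0.0333), a call lost without each array in turn except unstimulated replicate 1 (adjusted p up to 0.117), and with arrays centred or cyclic loess no PRC2 partner fell. The PRC2 core subunits EED (-0.12 ± 0.09, adjusted p = 0.405) and SUZ12 (-0.19 ± 0.09, adjusted p = 0.197) were singled out after their values were seen, as the partners of EZH2.

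Of 12 COMPASS partners 4 fell and 0 rose, with a median of -0.27. The shared subunits WDR5 and ASH2L fell by 0.50 ± 0.09 and 0.45 ± 0.09 (adjusted p = 0.00443 and 0.00687), and CXXC1, which binds unmethylated CpG in the SETD1 complexes, fell by 0.60 ± 0.10 (adjusted p = 0.00318). Among 21 subunits of HDAC corepressor complexes 2 rose, or 4 with arrays centred, and 4 fell (median -0.06). The NCoR subunit TBL1X read 4.92, 6.06 and 6.92 with PMA and 7.72, 7.66 and 7.91 in unstimulated cells, with PMA values spread over 2 log2 units. It fell by 1.80 ± 0.43 (adjusted p = 0.0176), a call lost without unstimulated replicate 2 (0.0590) or 3 (0.0653). RCOR1 (CoREST), the partner of KDM1A, fell by 0.72 ± 0.10 (adjusted p = 0.00150), and the methyl-CpG reader MBD2 rose by 0.73 ± 0.10 (adjusted p = 0.00140).

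Among 9 methylcytosine readers and repair genes 2 rose and 4 fell (median 0.05), among them UHRF2 with a fall of 1.01 ± 0.11 (adjusted p = 0.000610). Of 10 acetyl-lysine readers 4 fell and 0 rose (median -0.24), with BRD3 down by 0.76 ± 0.11 (adjusted p = 0.00202). Of 20 acetyltransferases with other names and their partners 1 rose and 5 fell (median -0.22), or 1 fell with arrays centred or with cyclic loess. Of 16 methyltransferases with other names 1 rose and 3 fell (median 0.04). SMYD3 fell by 1.64 ± 0.16 (adjusted p = 0.000281), the H3 lysine 9 enzyme SUV39H1 fell by 0.62 ± 0.13 (adjusted p = 0.0113), and the H3 lysine 79 enzyme DOT1L rose by 0.92 ± 0.18 (adjusted p = 0.00755). Of 8 demethylases with other names 0 passed in limma, and 1 had an unadjusted p under 0.05. Among 11 genes of cofactor supply 2 rose and 4 fell (median -0.28). The largest difference was that of ACSS2, at -1.56 ± 0.43 (adjusted p = 0.0322). That call was lost without each array in turn except unstimulated replicate 1 (adjusted p up to 0.121). IDH1, which makes oxoglutarate in the cytosol, fell by 1.32 ± 0.09 (adjusted p = 5.52e-05), and NAMPT, the rate-limiting enzyme of NAD salvage, rose by 1.45 ± 0.29 (adjusted p = 0.00864). Of the 42 partner genes that passed, 25 did so without each single array.

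**Figure D4:**
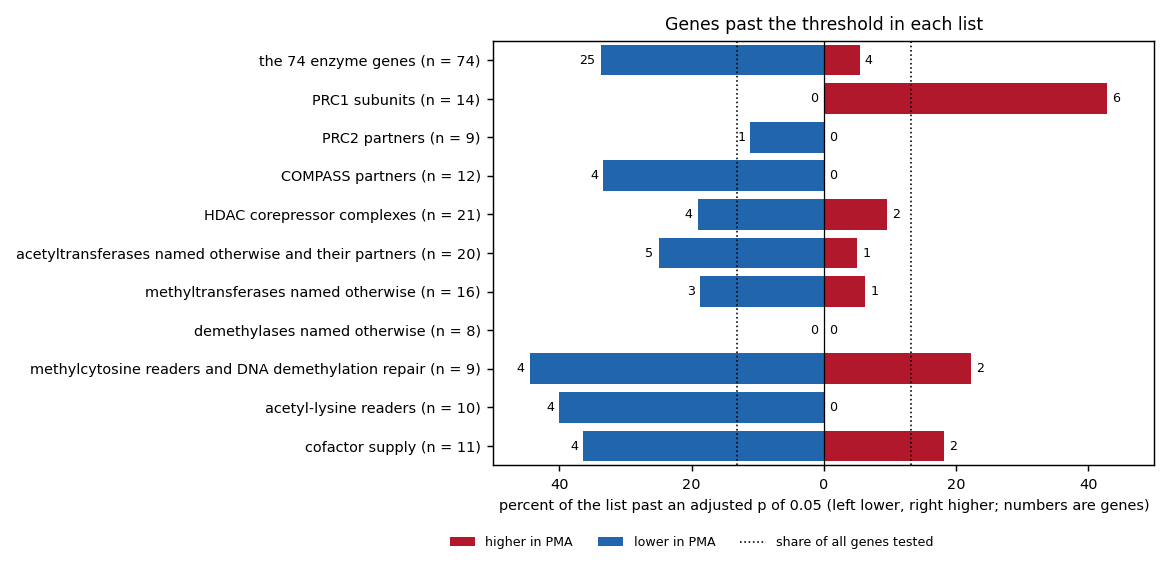
Percent of the 74 enzyme genes and of the measured genes of each partner list that passed an adjusted p of 0.05, higher with PMA to the right (red) and lower to the left (blue), with the number of genes beside each bar. Dotted lines mark 13.2% on either side, the shares of all genes tested. PRC1 subunits reach to the right only, and PRC2 partners, COMPASS partners and acetyl-lysine readers to the left only.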

How the data were processed

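Per the submitters' processing notes, the authors used RMA and Partek, with versions not given in the sources used here, and they deposited log2 expression values, 1 per probe set and array. RMA corrects background, normalizes quantiles and compresses differences near background. Array medians were 6.10 to 6.17 with PMA and 6.20 to 6.25 in unstimulated cells, so each unstimulated median lay above each PMA median. Quantile normalization makes array distributions equal, so the deposited values may hold a further step that the notes do not describe. With 3 arrays a group, precision was limited by their number.

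Of 33297 probe sets, 19460 carried 1 symbol, 1754 several and 12083 none in the platform annotation, and 19429 were matched by gene ID to the current gene table (GRCh38.p14). The brightest probe set by the mean over 6 arrays stood for a gene, giving 18417 genes, with no filter. The enzyme genes had 79 such probe sets, 1 per gene except for KDM8, KMT2A, KMT5A and TET2. Groups came from the sample titles. Log2 values were fitted in R 4.3.3 by limma 3.58.1 (functions lmFit and eBayes, group as the only term, 7.71 degrees of freedom, median standard error 0.115), two-sided, with a threshold of 0.05 on the adjusted p. Figures were drawn with matplotlib 3.10.9.

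The genes and the lists were chosen with earlier results of these data known. Every enzyme gene could be named. Values per array are given for genes changed at least 1.5-fold, for the brightest genes of a subfamily and for some of the genes whose groups overlap, and up to 4 genes past the threshold for a partner list. KDM5D, which is Y-linked, is counted only. On simulated arrays (10 runs, 200 of 18417 genes changed) 40.9% of 1.5-fold, 80.1% of 2-fold and 96.2% of 4-fold changes were recovered, with 3.66% false among the calls. In the data 26.4% of genes passed, so the adjusted threshold stood at another unadjusted p than in the simulation. These rates therefore do not carry over to the data. The 21 alternatives covered normalization, dim genes, probe set choice, variance model, a replicate block, thresholds and arrays left out.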

Additional observations from a re-analysis of the deposited data

How the results depend on the processing

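No called difference changed sign under any of the 21 alternatives, and HDAC4, HDAC7, KDM4A, KDM7A, SETD7 and TET1 kept their calls in each one in which they were tested, while the other 23 of the 29 lost theirs in at least 1. Of the 29, 15 kept the call without each single array. The lower count of 25 was 16 with each array centred on its median, where 9.78% of all genes were lower. A gene-wise linear model without shared variance gave 12 lower (7.92% of all genes), and an adjusted p of 0.01 gave 11 (7.14%). Treat against a 1.5-fold change gave 3 higher and 3 lower, where 3.7% of all genes were higher and 2.41% lower. With 1 array left out the lower count was 12 to 24, where 8.67% to 13.3% of all genes were lower. The higher count of 4 was 2 with genes below the median left out, 7 with PMA replicate 3 and unstimulated replicate 1 both left out, and 4 to 6 with 1 array left out. Array quality weights gave 6 higher and 34 lower, where 16.6% of all genes were higher and 17.2% lower. Fewer genes tested, fewer arrays or a stricter threshold go with some of these counts. With arrays centred the median difference over all genes was 0.06, against -0.03 as reported. For the other counts the cause was not tested. Of the 45 genes that did not pass, 13 passed under some alternative. The replicate numbers were not shown to pair the arrays: deviations of equally numbered arrays correlated at 0.18, -0.02 and 0.05. The fit with a replicate block gave 5 higher and 25 lower, where 13.1% of all genes were higher and 12.6% lower. It kept 27 of the 29 calls. Values near background, such as TET1 with PMA, KDM7A and KDM4D in unstimulated cells, and KDM6A, limit what the arrays can show.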
